A study of Mus musculus with 4 samples.

Results

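H19, Igf2, Igf2r, Grb10, Gnas, Plagl1, Peg3 and Ndn are imprinted genes outside the Dlk1-Dio3 region, and these 8 were taken by gene symbol from the 19353 genes counted in muscle stem cells (MuSCs) of sham-operated and overloaded plantaris muscle. They were selected with the difference between the groups in view, so that their differences are described here without a test. Every mouse carried both Pax7-CreERT2 and Rosa-YFP, in which tamoxifen lets a Cre recombinase made only in Pax7-expressing cells switch on yellow fluorescent protein (YFP), and the sorted population therefore included any descendants of those cells that had since lost Pax7. In the overloaded group the tendons of gastrocnemius and soleus had been cut, which shifts their load to the plantaris, and in the sham group only the skin had been opened. YFP-positive cells were collected 4 days after surgery into tubes of 100 cells, and each tube gave 1 CEL-Seq2 library, with 2 libraries per group. The age and sex of these mice, whether a group was drawn from several mice and whether sham and overloaded muscle came from the same mice are not given for these libraries in the sources used here (in some other experiments of the study, the sham muscle was that of the opposite leg), so that p-values measure only the spread between these libraries, which may be technical.

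An imprinted gene is transcribed mainly from the copy inherited from 1 parent, according to DNA methylation set in the germ line at a control region nearby. Many imprinted genes act on fetal growth through the insulin-like growth factor (IGF) pathway and are turned down after birth, and several of them, including H19 and Peg3, are known to be expressed in muscle stem cells or forming muscle. H19 and Igf2 are neighbours that share enhancers, and an insulator bound by the factor CTCF separates Igf2 from those enhancers on the maternal copy, where H19 is transcribed instead. The counts hold no information on the parental copy, so that all values below are sums over both copies.

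H19 makes no protein, and the sequences it is best known for are the microRNAs cut from its RNA. The hairpin of miR-675 was found in 3 of 7 annotated H19 transcripts and begins at base 997 of the longest one, which has 2286 bases. Its mature forms are shown because each copy of such a transcript carries them, with the seed, bases 2 to 8, in capitals (RefSeq, GRCm38.p6, minus strand of chromosome 7, 142577112 to 142577133 for the 5p arm and 142577078 to 142577099 for the 3p arm).
mmu-miR-675-5p: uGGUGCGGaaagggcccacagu
mmu-miR-675-3p: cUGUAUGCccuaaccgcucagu
Their seeds differ. CEL-Seq2 captures polyadenylated RNA, and the microRNAs themselves were not measured.

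Plagl1 encodes a zinc finger factor that binds GC-rich DNA, and Plagl1 and Peg3 both took a smaller share of the counts after overload. RefSeq promoter windows, from 250 bases before to 50 bases after a start site, were at hand for 7 of the genes, 14 windows in all, and H19 had none. The letters GGGGCCCC, a motif of PLAGL1 that reads the same on both strands, occurred in 1 of these windows, that of Peg3, and in 354 of all 32851 windows (1.08%). The match, in capitals, begins 201 bases before the start site of Peg3 and is shown with its surroundings (minus strand, chr7:6730602-6730631, GRCm38.p6).
Peg3 window: gactctgcttgGGGGCCCCtaacactgact
All 30 of these bases also lie in annotated exons of Usp29, an imprinted gene that starts on the other strand. The letters CAGCTG, the E-box form favoured by MyoD, were in none of the 14 windows and in 16.3% of all windows. The general E-box letters CANNTG, where N is any base, were in windows of Igf2, Igf2r, Grb10, Plagl1 and Gnas. They were in 72.3% of all windows. Several windows belong to the same gene, and some of those of Gnas overlap. A match in letters is not a bound site.

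The sham libraries held 269683 and 260488 distinct molecules, counted by unique molecular identifier (UMI), and the overloaded libraries held 387955 and 483528. A single count was worth 4.35 and 4.53 CPM in the sham libraries and 2.60 and 2.03 CPM in the overloaded libraries. CPM are counts scaled to a common library total and by TMM factors, and give a level relative to the rest of the library. Because CEL-Seq2 counts the 3′ end of each molecule, a count is 1 molecule whatever the length of the gene. Divided by its degrees of freedom, the chi-square of the counts was 1.31 between the sham libraries and 1.5 between the overloaded libraries, and 6.35 to 7.86 between libraries of different groups. Each tube pooled its cells, so that more cells with an RNA and more of it per cell cannot be told apart.

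H19, a long noncoding RNA made from the maternal copy, was scarce in sham MuSCs and among the most counted RNAs after overload. Its counts were 19 and 15 in sham, and 366 and 458 in overload. Both overloaded libraries lay far above both sham libraries, and the libraries of each group lay close together. In CPM, H19 went from 75.3 ± 10.4 to 940 ± 17.1 (SD, n = 2 each), 12.4-fold higher, or 3.63 as log2 fold change with a standard error of 0.22. By number of counts it stood in places 3329 and 3872 among the genes of the sham libraries and in places 28 and 20 of the overloaded libraries. Among the 4715 tested genes with a mean of at least 20 counts, 53 rose by more. Leaving out any library gave H19 a log2 fold change between 3.46 and 3.75. H19 (ENSMUSG00000000031) lies on chromosome 7 of GRCm38, minus strand, between 142575529 and 142578143, and shares none of the last 1000 bases of its exons with another annotated gene.

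**Figure D1:**
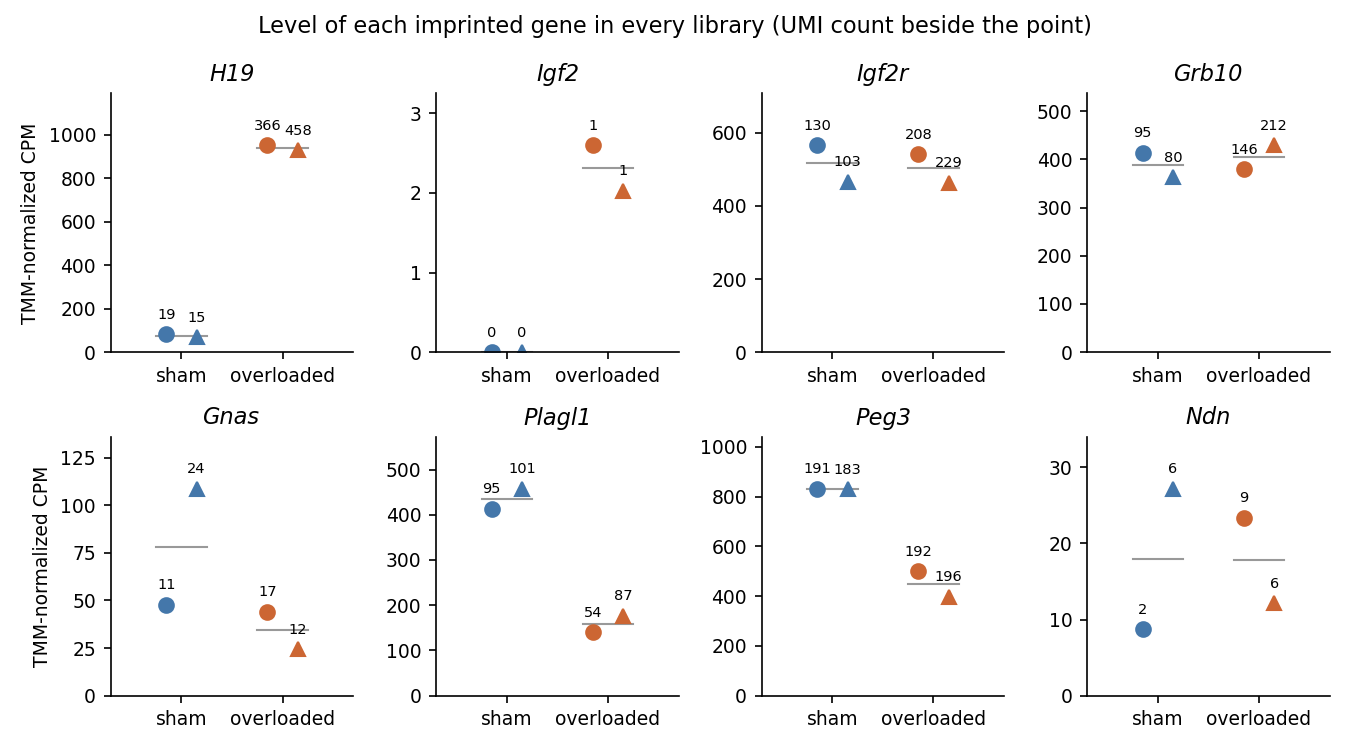
Level of the 8 imprinted genes in each library (points, TMM-normalized CPM, each vertical axis from 0), with the UMI count above each point and a grey line at the mean of the 2 libraries of a group. H19 lies between 68.0 and 82.7 CPM in sham and between 927 and 952 CPM after overload, whereas the libraries of both groups overlap for Igf2r, Grb10 and Ndn.

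Igf2, the fetal growth factor gene that starts 88.7 kb upstream of H19, was practically not counted in the same libraries. It had 0 and 0 counts in sham and 1 and 1 after overload. Both groups lie at or below 3 counts, the floor used here, and no fold change is given. A floor of 3 counts corresponds to 13.1 and 13.6 CPM in the sham libraries and to 7.80 and 6.08 CPM in the overloaded ones, a limit that covers counting error only. Igf2 (ENSMUSG00000048583, minus strand of chromosome 7, 142650766 to 142666816) shares 997 of the last 1000 bases of its exons with Gm49394 on the same strand, and reads there could have been left out or given to either gene, so that its count is uncertain.

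Igf2r and Grb10, like H19 known as maternally expressed genes in most tissues outside the brain, were abundant in every library and differed little between the groups relative to other transcripts. Igf2r encodes the receptor that takes up IGF2 for breakdown and carries enzymes to lysosomes. Its counts were 130 and 103 in sham, and 208 and 229 in overload, and its level was 516 ± 70.2 CPM against 502 ± 54.5 CPM (SD, n = 2 each). The CPM of the groups overlapped, and the difference of −0.05 on the log2 scale (SE 0.17, 95% interval −0.40 to 0.31) changed sign with the library left out, from −0.21 to 0.11. Grb10 encodes an adaptor protein that restrains signalling from the insulin and IGF1 receptors. Its counts were 95 and 80 in sham, and 146 and 212 in overload, at 388 ± 36.1 and 404 ± 35.1 CPM (SD, n = 2 each). Its groups overlapped as well, with a difference of 0.06 on the log2 scale (SE 0.17, 95% interval −0.30 to 0.42). Igf2r lies on the minus strand of chromosome 17 (12682406 to 12769664) and Grb10 on the minus strand of chromosome 11 (11930508 to 12038683), and neither shares an exon base with another gene.

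Gnas encodes the stimulatory G protein subunit that links hormone receptors to adenylate cyclase, and it is maternally expressed in a few tissues only. Gnas had 11 and 24 counts in sham, and 17 and 12 in overload, so that the counts overlapped. In CPM the groups did not overlap, at 78.3 ± 43.0 in sham and 34.3 ± 14.1 after overload (SD, n = 2 each), with the sham libraries far apart. The log2 fold change was −1.22 (SE 0.44), and without sham replicate 2 it was −0.56. Gnas (plus strand of chromosome 2, 174284320 to 174346744) shares 965 of the last 1000 bases of its exons with Gm20721 on the opposite strand. The strand setting of the counting is not stated, so that this count is uncertain.

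Of the paternally expressed genes, Plagl1 and Peg3 were lower in both overloaded libraries than in both sham libraries relative to other transcripts. Plagl1, whose zinc finger product acts on other imprinted genes and restrains cell division, had 95 and 101 counts in sham, and 54 and 87 in overload. It was the only one of the 8 with fewer counts in both overloaded libraries, which held more UMIs, than in either sham library. In CPM it went from 436 ± 31.1 to 158 ± 25.3 (SD, n = 2 each), 2.72-fold lower, with a log2 fold change of −1.44 (SE 0.19) that lay between −1.59 and −1.28 with a library left out. Peg3 encodes another zinc finger factor and is known as a marker of adult stem cells in several tissues. Peg3 had 191 and 183 counts in sham, and 192 and 196 in overload, nearly the same number per tube. In CPM it went from 830 ± 1.69 to 448 ± 72.3 (SD, n = 2 each), with a log2 fold change of −0.90 (SE 0.17), between −1.04 and −0.69 with a library left out. Plagl1 lies on the plus strand of chromosome 10 (13060504 to 13131694) and Peg3 on the minus strand of chromosome 7 (6703892 to 6730431), with no other gene in the last 1000 bases of their exons.

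Ndn encodes necdin, a growth suppressor of the MAGE family that is made from the paternal copy. It had 2 and 6 counts in sham and 9 and 6 after overload, too few for the test. The libraries overlapped, and the ratio of overloaded to sham after scaling was 0.962, and its exact Clopper-Pearson interval of 0.383 to 2.62 covers counting error only. With a library left out the ratio lay between 0.628 and 1.96. Ndn is a gene of 1 exon on the plus strand of chromosome 7 (62346569 to 62350262).

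In the fit of all genes, 7228 genes had enough counts, and 52.1% of them were past an adjusted p of 0.1 (25.8% higher and 26.3% lower). Of the 8 genes, 6 were in the fit, and in 4 of these the CPM of the groups did not overlap. H19 was higher, and Gnas, Plagl1 and Peg3 were lower, where 72.9% of all tested genes had no overlap. Since the genes were picked on this contrast, the count is a description. Fold changes also depended on abundance in these libraries, with a median log2 fold change of 0.05 over all tested genes, of 0.53 in the least abundant 10% and of −0.74 in the most abundant 10%. The 200 tested genes nearest to H19 in mean level had a median of −0.82, and each of them lay below H19 in the plot of difference against abundance. The 200 genes nearest to Peg3 had a median of −0.84, close to its −0.90, and those nearest to Plagl1 had a median of −0.37, above its −1.44. The medians were −0.77 for the genes nearest to Igf2r and −0.80 for those nearest to Grb10, below the −0.05 and 0.06 of these genes, and 0.38 for those nearest to Gnas, above its −1.22.

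**Figure D2:**
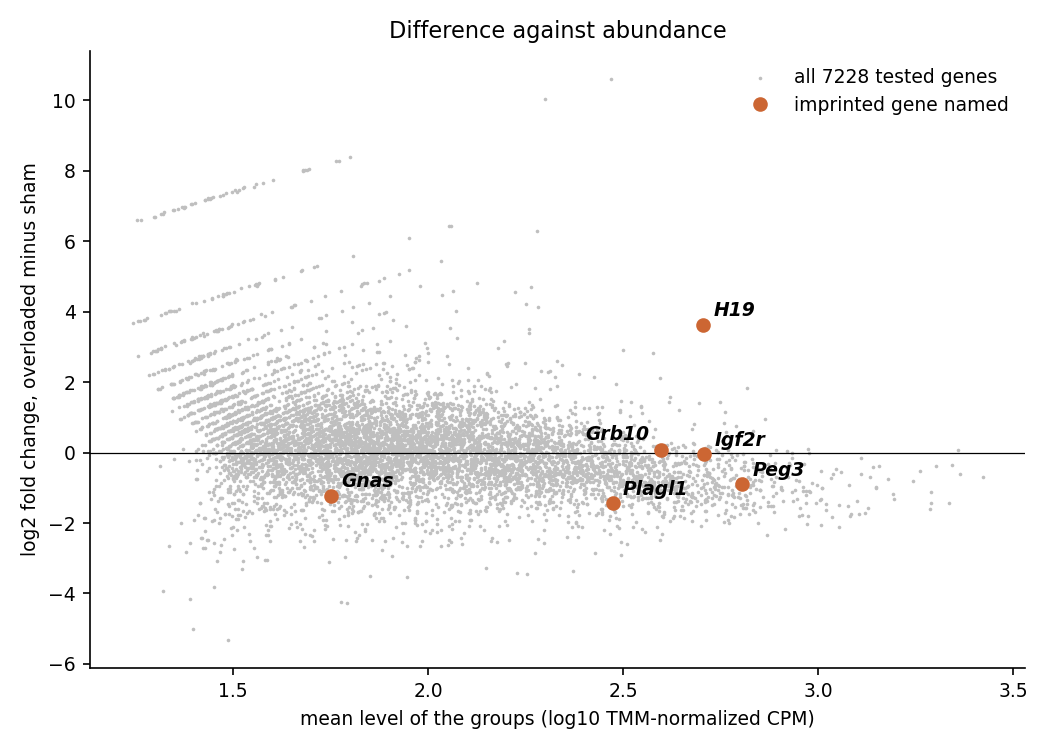
Log2 fold change, overloaded minus sham (vertical axis), against the mean level of the groups (horizontal axis, log10 of TMM-normalized CPM) for the 7228 tested genes (grey) and for the 6 imprinted genes in the fit (orange). H19 lies at 3.63 among abundant genes that mostly lie below 0, Igf2r and Grb10 lie near 0, and Peg3, Gnas and Plagl1 lie at −0.90, −1.22 and −1.44.

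The size of the differences depended on the scale, since the overloaded tubes gave more UMIs from the same number of cells. Per tube of 100 cells, without scaling, the log2 fold change was 4.59 for H19, 1.03 for Grb10, 0.91 for Igf2r, 0.05 for Peg3, −0.27 for Gnas and −0.47 for Plagl1. Over all tested genes the median on that scale was 1.01, against 0.05 with TMM. Under offsets that remove the dependence on abundance, the values were 4.07 for H19, 0.71 for both Igf2r and Grb10, −0.06 for Peg3, −1.02 for Plagl1 and −1.44 for Gnas. Of all tested genes, 66.6% were past the threshold per tube (62% higher, 4.58% lower) and 42.3% under the offsets (20.4% higher, 21.8% lower). H19 was thus higher and Plagl1 lower on every scale tried, whereas Peg3 was lower with the factors of TMM and near 0 under the offsets and per tube.

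**Figure D3:**
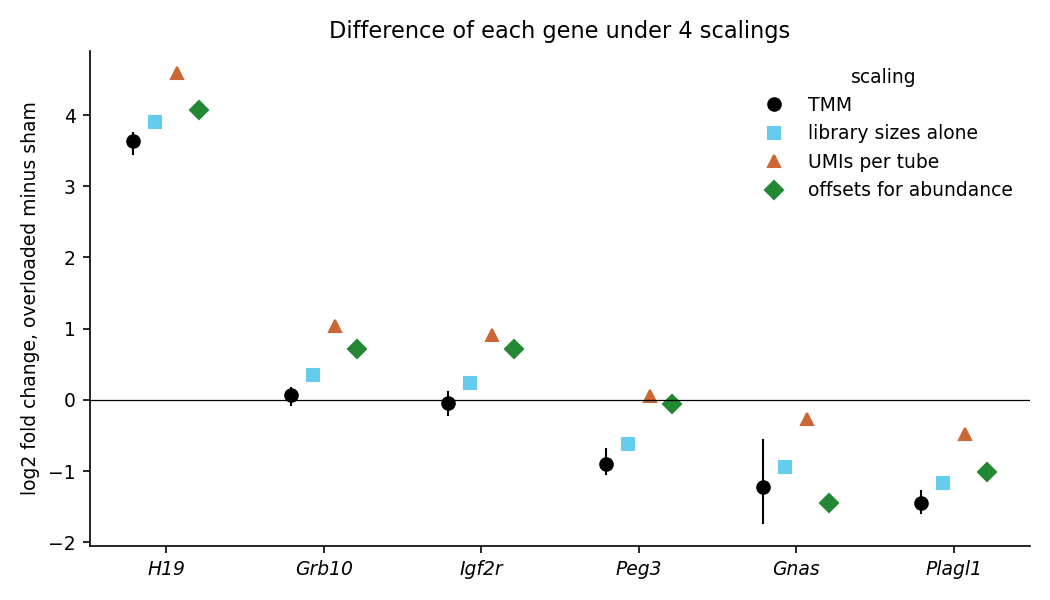
Log2 fold change, overloaded minus sham, of the 6 imprinted genes in the fit (points). The scalings shown are TMM, library sizes alone, UMIs per tube and offsets for abundance. A black line at each TMM point spans the values with a library left out. The points of H19 stay between 3.63 and 4.59. Igf2r and Grb10 move from near 0 to about 1 when UMIs are taken per tube, and Peg3 reaches 0.05 there.

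The sorted cells held the RNA of satellite cell markers in every library, with Pax7 counted 118 and 107 times in sham, then 108 and 137 times after overload. All 10 satellite cell markers of the list were tested, and their summed level was 7234 and 6401 CPM in sham and 5325 and 4694 CPM after overload. Of all tested genes, 25.8% were higher and 26.3% lower, against which the counts of markers in each list can be read. Of the 10, 5 were lower and 2 higher, Itga7 at 0.67 (adjusted p = 0.0036) and Cdh15 at 0.47 (adjusted p = 0.049). The most abundant was Sdc4, and Pax7 itself fell by 0.84 on the log2 scale (adjusted p = 0.00064, edgeR quasi-likelihood test, Benjamini-Hochberg adjusted). The summed levels of leukocyte, myofibre, mural cell and endothelial markers were higher in both overloaded libraries than in both sham libraries. That of fibroblast markers was lower. The 8 leukocyte markers summed to 0 and 2 counts in sham and to 51 and 122 after overload, with Lyz2 the most abundant (17 and 38 after overload) and 6 of the 8 at 0 in both sham libraries. The 8 myofibre markers rose from 1693 and 901 CPM to 3091 and 2910 CPM, all 6 tested were higher, Acta1 was the most abundant, and Myh1 and Myh2 were at 0 in sham. The 7 mural cell markers summed to 770 and 698 CPM in sham and to 1204 and 1375 CPM after overload, most of it Acta2, with Myh11 at 0 in sham. Of the 3 tested, Acta2 (0.95) and Rgs5 (1.88) were higher and Tagln was lower (−0.61, adjusted p = 0.045). Of the 7 endothelial markers, 1 could be tested, Tek, the most abundant, which was lower, Egfl7 and Cldn5 were at 0 in sham, and the sums were 78.4 and 72.5 CPM against 114 and 87.1 CPM. The 9 fibroblast markers summed to 5733 and 5395 CPM in sham and to 4839 and 4325 CPM after overload, with Col3a1 the most abundant and Pdgfra, a defining marker, at 0 in sham and at 2 and 0 counts after overload. Of the 7 fibroblast markers tested, 4 were lower and 2 higher, Col1a2 (74 and 55 counts in sham, 426 and 465 after overload, log2 fold change 1.84, adjusted p = 1.0e-06) and Ly6a (1 and 0 counts, then 22 and 41, adjusted p = 0.00011). The part of these cells in the levels of H19, Plagl1 and Peg3 was not tested.

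Among 62 other genes listed as imprinted in the mouse, 51 were in the table and 29 had enough counts, and they moved in both directions. Of the 29, 7 were higher and 9 were lower past the threshold, 55.2% against 52.1% of all tested genes, and their median log2 fold change was 0.01 against 0.05. By the edgeR quasi-likelihood test (Benjamini-Hochberg adjusted), the values of the genes named were as follows. Kcnq1ot1 and Airn, paternally expressed noncoding RNAs that silence neighbouring genes in cis, both fell. Kcnq1ot1 had 150 and 134 counts in sham, and 109 and 101 in overload (log2 fold change −1.38, SE 0.18, adjusted p = 1.6e-05). Airn starts inside Igf2r on the other strand and shares no exon base with it. It was counted 53 and 51 times and then 29 and 37 times (−1.61, SE 0.23, adjusted p = 3.1e-05). Igf2r had CPM that overlapped between the groups, at −0.05 with TMM, 0.71 under the offsets for abundance and 0.91 per tube. Zdbf2, which encodes a zinc finger protein, had 62 and 60 counts in sham, and 42 and 59 in overload (−1.24, SE 0.20, adjusted p = 0.00013). In these 3 genes both overloaded libraries had fewer counts than both sham libraries, although the overloaded libraries held more UMIs in all. Sgce, encoding a sarcoglycan, and Inpp5f, a phosphoinositide phosphatase, lay close to the threshold at −0.67 (adjusted p = 0.088) and −0.80 (adjusted p = 0.071). Sgce was not past it without sham replicate 1 (−0.57), overloaded replicate 1 (−0.60) or overloaded replicate 2 (−0.69), nor was Inpp5f without sham replicate 2 (−0.35) or overloaded replicate 2 (−0.60). With library sizes alone, upper-quartile factors, no filter or UMIs per tube, neither Sgce nor Inpp5f was past the threshold. In that order, Sgce was at −0.39, −0.58, −0.59 and 0.29, and Inpp5f at −0.52, −0.71, −0.72 and 0.15. Per tube, Zdbf2 was at −0.27 and not past the threshold.

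Of the tested paternally expressed genes, Impact and Peg12 rose. Impact, a regulator of translation under stress, had 11 and 10 counts in sham, and 28 and 74 in overload, with the overloaded libraries far apart. Its log2 fold change of 1.29 (SE 0.40, adjusted p = 0.014, edgeR quasi-likelihood test, Benjamini-Hochberg adjusted) fell to 0.68, not past the threshold, without overloaded replicate 2. Peg12 was counted 1 and 2 times and then 21 and 18 times (2.67, SE 0.62, adjusted p = 0.0023), and under the offsets for abundance it was at 0.55, not past the threshold. Peg12 was below the 20 counts used for naming genes and was chosen after its values were seen. Of the genes known as maternally expressed, 3 were tested and 0 passed the threshold, against 52.1% of all tested genes, and of the 9 tested paternally expressed genes 7 passed it (77.8%). The 3 maternally expressed genes were Cdkn1c, an inhibitor of cyclin-dependent kinases (122 and 73 counts in sham, 193 and 226 after overload, log2 fold change 0.15, adjusted p = 0.56), Zim1 (−0.31, adjusted p = 0.32) and H13 (0.10, adjusted p = 0.73). DESeq2, which called 9.34% of the genes it adjusted higher and 11.7% lower (21.1% in all), also passed 0 of these 3. On other scales some of them were higher past the threshold, as were 20.4% of all tested genes under the offsets, 62% per tube and 2694 of the 7228 with library sizes alone. Cdkn1c was at 0.85 under the offsets for abundance (adjusted p = 0.00045), at 0.42 with library sizes alone (adjusted p = 0.059) and at 1.10 per tube (adjusted p = 0.00050), and per tube H13 was at 1.05 (adjusted p = 0.0030) and Zim1 at 0.64 (adjusted p = 0.088), all by edgeR.

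Genes imprinted in single tissues, such as the placenta or the brain, made up 17 of the 29, of which 5 were higher and 4 lower (52.9% against 52.1% of all tested genes). The largest differences were those of Gatm and Calcr. Gatm, which encodes the first enzyme of creatine synthesis, had 4 and 4 counts in sham, and 51 and 65 in overload (log2 fold change 2.87, SE 0.39, adjusted p = 2.4e-05, edgeR quasi-likelihood test, Benjamini-Hochberg adjusted). Calcr, the calcitonin receptor known for holding satellite cells quiescent, was counted 37 and 57 times and then 15 and 15 times (−2.60, SE 0.32, adjusted p = 6.8e-06). It is also in the satellite cell marker list. Tfpi2, a protease inhibitor, went from 44 and 40 to 12 and 28 counts (−2.03, adjusted p = 4.3e-05), Ampd3, an AMP deaminase, from 52 and 42 to 32 and 49 (−1.18, adjusted p = 0.00064) and Htra3, a serine protease, from 121 and 121 to 112 and 142 (−0.89, adjusted p = 0.00034). Commd1, which takes part in copper handling, rose from 9 and 8 to 35 and 38 counts (1.14, adjusted p = 0.019). The other 3 that rose were Casd1 (1.11, adjusted p = 0.038), Cobl (0.72, adjusted p = 0.069) and Nap1l4 (0.68, adjusted p = 0.097). Nap1l4 was not past the threshold with no filter (0.76), with at least 10 counts in every library of a group (0.61) or with counts corrected for repeated UMIs (0.67). Casd1, with a mean of 19.5 counts, was named after its values were seen. Commd1, Casd1, Cobl, Nap1l4, Impact, Sgce and Inpp5f were not past the threshold under DESeq2. Under the offsets for abundance, Htra3 (−0.25), Casd1 (0.88), Cobl (0.63) and Nap1l4 (0.59) were not past it, and per tube neither were Ampd3 (−0.21) and Htra3 (0.07). Casd1 also lost its call without sham replicate 2 (0.84) or overloaded replicate 1 (0.83), Cobl without sham replicate 2 (0.53) or overloaded replicate 2 (0.53), and Nap1l4 without sham replicate 1 (0.57), sham replicate 2 (0.72) or overloaded replicate 1 (0.46).

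**Figure D4:**
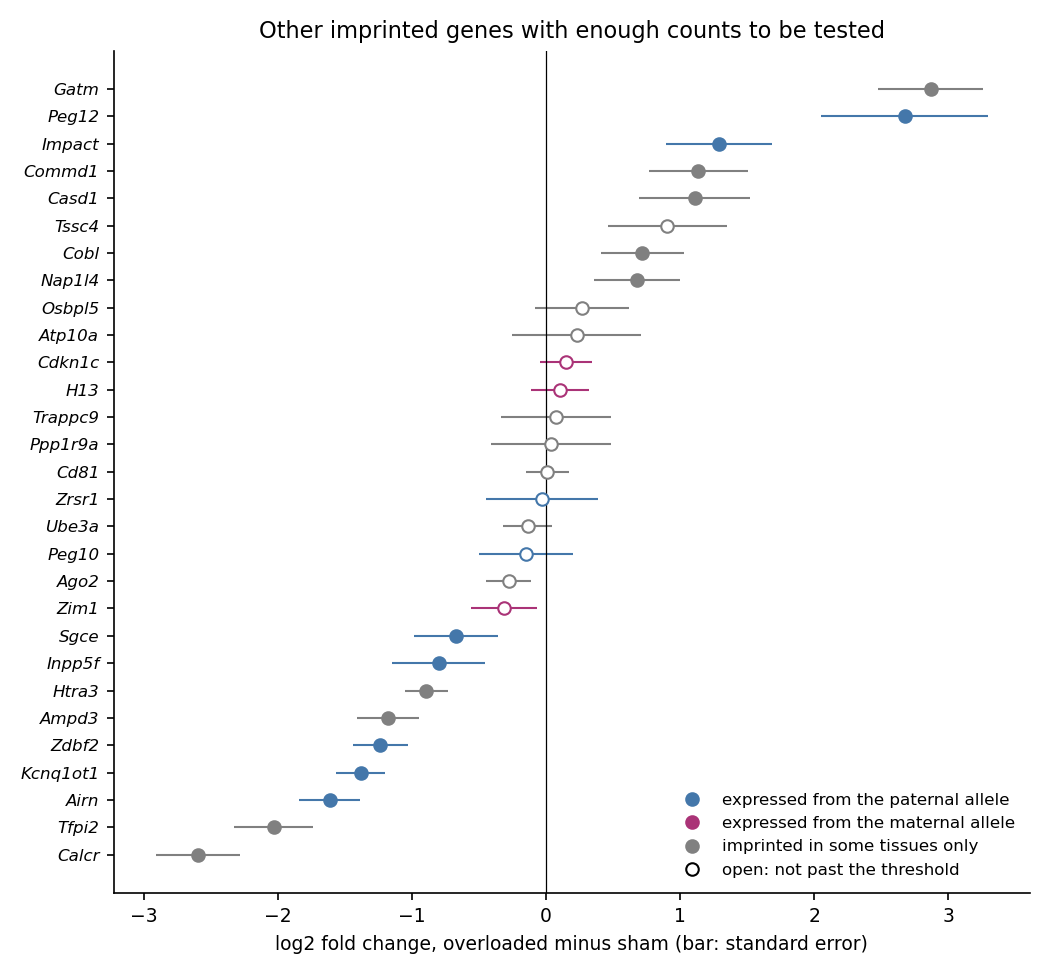
Log2 fold change, overloaded minus sham, with its standard error (bars) for the 29 other imprinted genes in the fit, grouped by the parental copy they are known to be expressed from. The genes lie from −2.60 (Calcr) to 2.87 (Gatm), and the 3 maternally expressed genes lie between −0.31 and 0.15.

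Several imprinted genes were too scarce for the test, and those named here were chosen after their values were seen. Mest, a paternally expressed gene of the hydrolase family that is abundant in fetal tissue, had 1 and 0 counts in sham, and 34 and 14 in overload, a ratio of 24.6 after scaling (exact binomial interval 4.21 to 992). The overloaded libraries lay far apart at 88.4 and 28.4 CPM, and the ratio was 12.8 without overloaded replicate 1 and 39.8 without overloaded replicate 2. It was 12.6 without sham replicate 2, and without sham replicate 1 no sham count was left. The intervals here cover counting error only. Of the last 1000 bases of its exons, 912 overlap a gene on the other strand. Mcts2 had 3 and 1 counts and then 9 and 25, a ratio of 4.36 (interval 1.55 to 16.9), with the overloaded libraries far apart, and this ratio was 2.64 without overloaded replicate 2 and 8.54 without sham replicate 1. Asb4 went from 7 and 14 counts to 1 and 2, and Nap1l5 from 10 and 4 to 1 and 1. Both were 13.7-fold lower over the groups, with intervals of 4.08 to 71.5 for Asb4 and 3.14 to 124 for Nap1l5, and with a library left out they were 8.92- to 18.6-fold and 7.96- to 19.1-fold lower. Usp29, which starts opposite Peg3, had 2 and 4 counts and then 13 and 8, a ratio of 1.79 (interval 0.701 to 5.44) that lay between 1.22 and 2.75 with a library left out. Snrpn, Nnat, Mkrn3 and Phlda2 had at most 4 counts in a library.

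At the Dlk1-Dio3 region, for comparison, the maternally expressed noncoding RNAs fell and the paternally expressed Dlk1 rose. Meg3 went from 422 and 406 counts to 177 and 194 (log2 fold change −2.11), Rian from 99 and 113 to 21 and 36 (−2.86), Mirg from 74 and 73 to 18 and 8 (−3.44) and Dlk1, which encodes a transmembrane protein of the Notch ligand family, from 10 and 8 to 46 and 51 (1.46). All 4 were past the threshold, as were 52.1% of all tested genes, with adjusted p-values of 1.2e-07, 1.2e-07, 3.6e-07 and 0.0024 by the edgeR quasi-likelihood test (Benjamini-Hochberg adjusted). H19 and Meg3, both maternally expressed noncoding RNAs, thus moved in opposite directions in the same libraries. Rtl1 and Dio3 had at most 2 counts in a library.

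Of the 15 genes listed around IGF signalling, 14 were in the table and 11 were tested, and 3 were higher and 4 lower past the threshold, 63.6% against 52.1% of all tested genes, with a median log2 fold change of −0.40 against 0.05. Igf1, the other ligand of the pathway, went from 344 ± 6.57 to 161 ± 21.6 CPM (SD, n = 2 each; −1.08, SE 0.19, adjusted p = 0.00020, edgeR quasi-likelihood test, Benjamini-Hochberg adjusted). Igf1r, the receptor for both ligands, went from 568 ± 3.48 to 297 ± 16.9 CPM (−0.94, SE 0.16, adjusted p = 0.00022), although its counts, 130 and 126 in sham and 119 and 141 after overload, overlapped. The insulin receptor gene Insr was at −0.63 (adjusted p = 0.19). Of the receptor substrates, Irs2 was lower (−1.67, adjusted p = 1.6e-06) and Irs1 higher, from 3 and 0 to 18 and 21 counts (2.67, adjusted p = 0.0038). Of the last 1000 exon bases of Irs1, 989 overlap a gene on the other strand.

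Of the genes for IGF binding proteins, which hold IGFs outside the cell, Igfbp3 and Igfbp7 rose. Igfbp3 went from 7 and 4 to 31 and 51 counts (log2 fold change 1.91, adjusted p = 0.0014, edgeR quasi-likelihood test, Benjamini-Hochberg adjusted) and Igfbp7 from 17 and 23 to 84 and 122 (1.39, adjusted p = 0.00021). Igfbp5, the most abundant of them, was at 144 and 140 counts in sham and 268 and 259 after overload (−0.05, adjusted p = 0.82), Igfbp4 was at 0.11 (adjusted p = 0.67) and Igfbp6 at −0.40 (adjusted p = 0.49). Igf2bp2, which encodes a binding protein of Igf2 and other mRNAs, was lower at −1.33 (adjusted p = 0.0041), and Igf2bp1 and Igf2bp3 were not tested, with at most 9 counts in a library. Igfbp2 had no count in sham and 2 and 5 after overload.

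Gnas acts through cyclic AMP, and of 24 genes listed for that pathway 17 were tested, 3 higher and 7 lower (58.8% against 52.1% of all tested genes), with a median log2 fold change of 0.01. Those that moved most were Crem, a cyclic AMP-responsive transcription factor (−2.06, adjusted p = 3.2e-06), and the phosphodiesterases Pde4b (433 and 445 counts in sham, 226 and 290 after overload, −1.73, adjusted p = 4.2e-07) and Pde4d (−1.67, adjusted p = 0.00074), which break cyclic AMP down. All adjusted p-values are from the edgeR quasi-likelihood test (Benjamini-Hochberg adjusted). The 3 that were higher included Prkar2b and Prkaca, a regulatory and a catalytic subunit of protein kinase A, at 1.51 and 1.18.

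Among 19 genes for proteins that set or keep imprints, 15 were tested, 3 higher and 4 lower (46.7% against 52.1% of all tested genes), with a median of −0.06. Those that moved most were Uhrf1, which brings the maintenance methyltransferase to newly copied DNA (2 and 0 counts in sham, 24 and 31 after overload, log2 fold change 3.71, adjusted p = 0.00033), Setdb1, a histone methyltransferase (1.75, adjusted p = 0.0072), and Dnmt1, the maintenance methyltransferase itself (8 and 8 counts, then 44 and 62, 1.75, adjusted p = 0.00060), by the edgeR quasi-likelihood test (Benjamini-Hochberg adjusted). Ctcf, whose product binds the insulator between H19 and Igf2, was at −0.31 (35 and 29 counts in sham, 49 and 51 after overload, adjusted p = 0.32). Of 8 paralogs of Plagl1, Ndn and Grb10, 7 were in the table and 3 were tested, all of the Ndn family, and Maged2 was higher (1.44, adjusted p = 0.017). Plagl2 had 12 and 5 counts in sham and 9 and 14 after overload, and Grb14 had 0 and 0 and then 4 and 3.

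The genes around H19 were taken after its values were seen. Within 250 kb of H19, 12 other genes were in the table, 5 were tested, and 3 were higher and 2 lower, where 52.1% of all tested genes were past the threshold (25.8% higher and 26.3% lower). Tnnt3 and Tnni2, which encode fast troponins of the myofibre and start 79.3 and 136 kb downstream of H19, rose by log2 fold changes of 1.20 (SE 0.20, adjusted p = 0.00015) and 1.12 (SE 0.25, adjusted p = 0.0019), by the edgeR quasi-likelihood test (Benjamini-Hochberg adjusted). Ctsd, a lysosomal protease gene 190 kb downstream, was at 0.80 (adjusted p = 0.028). Mrpl23, which encodes a mitochondrial ribosomal protein and starts 45.5 kb downstream, fell by 1.12 on the log2 scale (adjusted p = 0.026), and Lsp1, an actin-binding protein gene, by 0.60 (adjusted p = 0.031). The noncoding Nctc1, between H19 and Mrpl23, had 7 and 4 counts in sham and 3 and 3 after overload.

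**Figure D5:**
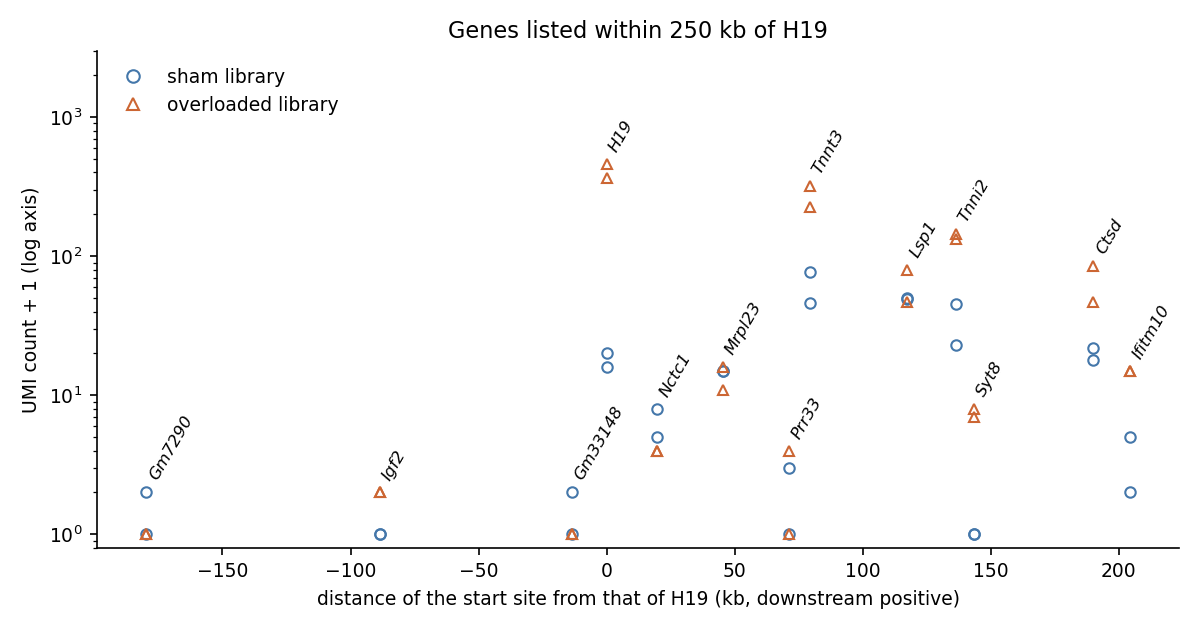
UMI count plus 1 in each library (vertical axis, log scale) of H19 and the 12 other genes within 250 kb of it. The horizontal axis is the distance of each start site from that of H19 (kb, downstream to the right). Circles are sham libraries and triangles are overloaded libraries, and genes too scarce for the test are included. H19 ranges from 15 to 19 counts without overload and from 366 to 458 with it. Igf2, 88.7 kb upstream, has at most 1 count in any library.

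The genes whose levels over the 4 libraries were most like those of H19, by the distance between centred log2 CPM among 4714 genes, were Racgap1, Klhl31, Cenpa, Akr1b8 and Mcm6, at distances of 0.323 to 0.404. Racgap1, needed for the division of the cell body, had 2 and 2 counts in sham, and 51 and 80 in overload. Cenpa, the histone variant of centromeres, was counted 3 and 3 times and then 80 and 117 times. Mcm6, a subunit of the replicative helicase, went from 2 and 1 to 44 and 42 counts, Klhl31, a muscle gene of the Kelch family, from 2 and 1 to 36 and 51, and Akr1b8, an aldo-keto reductase, from 2 and 1 to 53 and 65. Each had fewer counts than H19 in every library. The gene most like Plagl1 was Tns2, and those most like Peg3 were Bclaf1 and Fth1, each with counts in all 4 libraries. With 4 libraries in 2 groups, likeness of this kind is mostly the difference between the groups, and Igf2 had too few counts for such a comparison.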

How the data were processed

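The authors extracted cell barcodes and UMIs with UMI-tools (version 1.0.0 in their methods), aligned the reads to GRCm38 with HISAT2 (2.1.0), assigned them to genes with featureCounts (1.6.4) and collapsed the UMIs of each gene. For UMI-tools, the paper's list of resources gives a later version. The deposited values are raw UMI counts. The annotation release and strand setting are not given in the sources used here. All 19353 gene identifiers matched GENCODE M21, 19331 under the same name.

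From these counts, TMM factors were computed in edgeR (version 4.0.16, R 4.3.3), and genes were kept by filterByExpr (minimum count 10, minimum total 15). The quasi-likelihood test (glmQLFit, glmQLFTest) was run on the resulting 7228 genes over all libraries with surgery as the only term (common biological coefficient of variation 9.5%). P-values were adjusted over all these genes by the Benjamini-Hochberg method, and the threshold was 0.1. Unadjusted, 3732 genes (51.6%) had a p below 0.05. No list was tested as a set. The prior count was 0.125. CPM were computed on the library sizes of the tested genes multiplied by their TMM factors. For a single gene, an exact two-sided permutation test of these libraries has a smallest p of 0.333, so that adjusted p-values rest on the spread shared across genes.

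The 8 genes and all lists were chosen with earlier results of these data known. Other imprinted genes were named when they passed, had a mean of 20 counts or more and had no overlap between the groups, up to 12 by size. All tested genes of the Dlk1-Dio3 region and all IGF receptors and binding proteins were named, as were up to 3 genes of every other list past the threshold and the most abundant marker of each list. Genes named beyond these rules, such as Nap1l4, Sgce, the tested maternally expressed genes, Prkar2b, Prkaca, Ctcf and further markers, were chosen after their values were seen. Alternatives were DESeq2 (1.42.0), 5 other scalings, 2 filters, a threshold of 0.05, a block for the replicate number, a correction for repeated UMIs and each library left out. The arrays of regenerating muscle were not analysed here. Results for 1 further marker list and for single genes are not reported here.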

Additional observations from a re-analysis of the deposited data

How the results depend on the processing

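Over 16 settings, H19 was higher (log2 fold change 3.46 to 4.59) and Plagl1 lower (−1.59 to −0.47). With UMIs per tube, values that were below 0 relative to other transcripts came out above 0 for Igf2r (0.91), Peg3 (0.053), Peg10 (0.81), Sgce (0.29), Zrsr1 (0.92), Inpp5f (0.15), Zim1 (0.64), Ube3a (0.82), Ago2 (0.69) and Htra3 (0.070), a scale on which the median of all tested genes was 1.01. On that scale 4481 genes were higher and 331 lower (93.1% of calls higher), and 19 of the other imprinted genes were higher and 4 lower. With library sizes alone, 66.6% of calls were higher, against 49.6% with TMM. DESeq2 called 967 genes higher and 1215 lower, and 3 of the other imprinted genes higher and 9 lower, some of them outside the edgeR fit. The cause was not tested. With 1 library left out, 1360 to 1668 genes were higher and 1489 to 1720 lower (47.7% to 49.2% higher), and 5 to 8 of the other imprinted genes were higher and 8 to 10 lower. In those fits the lone library is assumed to vary like the other group.

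No source used here ties the replicate numbers to animals, and the correlation of same-numbered deviations was −0.035. With the replicate number as a block, 1806 genes were higher and 1864 lower, and 7 and 9 of the other imprinted genes. Sgce, Inpp5f, Nap1l4, Casd1, Cobl and Impact lost their calls without at least 1 library. Igf2, Ndn and Mest were left out of the test by the filter on low counts.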
